A study of Mus musculus with 21 samples.

Results

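The cells compared here were N202 mouse mammary tumour cells recovered after a further round of growth on brain tissue (brain P2) and after the round before it (brain P1). The comparison took 4 of the 21 arrays in the series, 2 of brain P2 and 2 of brain P1, and they were chosen by their labels alone. The comparison asks what changed in the cells between the P1 and P2 rounds, without reference to the parental cells.

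Brain P2 cells had spent 42 days on brain tissue in 2 rounds, and brain P1 cells 21 days in a single round. N202 came from a mammary tumour of an FVB mouse that carries the rat HER-2/neu oncogene under the MMTV promoter, which is active in mammary epithelium, and the cells carry a histone H2B fused to GFP with a G418 resistance cassette. In each round spheroids were grafted onto minced brain of C57BL/6 donors in a dorsal skinfold chamber on nude mice, which lack mature T cells. The cells were then selected with G418, sorted for GFP and expanded in culture, so the RNA is that of cultured cells at both passages. The other arrays were of parental cells (P0, 2 arrays), brain P3 and P4 (2 each), bone marrow and lung P1 to P4 and breast P1 (1 each), and P1 and P2 of a second adaptation experiment on brain (1 each).

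Replicate 2 of each passage is labelled a technical replicate and was begun from cells already in culture. The p-values therefore measure the spread between cultures of the same cells, pooled over the pairs of P0 and brain P1 to P4. They do not measure the spread between adaptation experiments. Levels are log2 values from robust multi-array averaging (RMA), in which the probes of each probe set are summarised to a single value, so a difference of 1 is 2-fold. Of 34760 probe sets, 10638 reached a group mean of 7.3 in at least 1 group, and 7379 genes with a symbol of their own were tested. The arrays of P2 differed from each other by a root mean square of 0.376 over these genes and the arrays of P1 by 0.295, while each P2 array differed from each P1 array by 0.48 to 0.56.

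Cells that run short of amino acids or load their endoplasmic reticulum with unfolded protein slow general translation and raise the transcription factor ATF4. ATF4 pairs with C/EBP proteins on composite promoter elements and induces genes of amino acid synthesis, uptake and tRNA charging together with feedback genes such as Trib3, Ddit4 and Chac1. Dividing cells, for their part, raise genes of DNA synthesis through E2F factors and genes of mitosis through B-MYB complexes. The latter bind CHR elements near the start site. These pathways frame the comparison, because members of each were among the genes that differed between the passages.

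Between brain P2 and brain P1, 131 of 7379 genes were called by limma at an adjusted p below 0.05, 69 higher and 62 lower in P2, which is 1.78% of the genes tested (0.935% higher, 0.84% lower). The higher genes included 8 targets of ATF4 and the epithelial genes Tns4 and Pigr. The lower genes included 15 genes of mitosis and DNA replication, the calcium-binding protein gene S100a4 and the matrix gene Sparc. All 131 had both P2 arrays on the same side of both P1 arrays, as was the case for 27.1% of all genes in the higher and 28.9% in the lower direction. The median difference over all genes was -0.01. Of the called genes, 116 differed at least 2-fold, and the smallest called difference was 0.86 on the log2 scale.

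The number of calls depended on single arrays. It was 41 without P2 replicate 1, 13 without P2 replicate 2, 10 without P1 replicate 1 and 1 without P1 replicate 2, and Tns4 alone was called in all 4 of these fits. With the technical replicate label as a block it was 239 (125 higher, 114 lower), all 131 among them. For 74 of the 131 genes the lower passage mean lay under 7.3, so these genes passed the filter on level through P2, P1 or another group; 57 had both means at or above it, among 5584 such genes.

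Tns4 encodes tensin 4, a focal adhesion protein of epithelial cells. It had levels of 9.49 and 9.46 on the P2 arrays, against 6.17 and 5.51 on the P1 arrays. This was a 12.4-fold higher level (log2 difference 3.63, SE 0.27, adjusted p = 0.0038), with a gap between the passages far wider than the spread within them. In parental cells and at P3 and P4 the means were 10.99, 11.38 and 10.82, so P1 held the lowest level of the brain course and P2 lay between. Pigr, the receptor that carries polymeric immunoglobulins across epithelia, had levels of 7.75 and 9.32 at P2, against 4.77 and 5.04 at P1 (12.4-fold, SE 0.58 on the log2 scale, adjusted p = 0.028). The P2 arrays of Pigr lay apart from each other, and both stood well above P1. Its means at P0, P3 and P4 were 5.34, 5.49 and 6.08, so in the brain course Pigr passed the filter on level only through P2, and its P1 level lies where background may enter the fold.

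Reep6, which shapes membranes of the endoplasmic reticulum, measured 10.75 and 11.67 at P2, against 8.48 and 8.44 at P1 (6.74-fold, adjusted p = 0.031). Fndc1, which encodes a secreted protein with fibronectin type III domains, measured 8.29 and 7.86 at P2, against 5.28 and 5.51 at P1 (6.41-fold, adjusted p = 0.019), and it too passed the filter in the brain course only through P2. The iron carrier transferrin, Trf, was abundant at both passages and rose 4.06-fold in P2 cells, with levels of 11.84 and 12.18 at P2, against 9.92 and 10.05 at P1. The remaining genes among the 15 with the greatest rise included Slc7a7, a subunit of a cationic amino acid exchanger (4.18-fold), the membrane-anchored semaphorin Sema7a (3.79-fold) and Mme, the peptidase neprilysin (3.63-fold). Tcim (4.01-fold), Lix1l (4.11-fold) and Phyhd1 (3.72-fold) completed the group beside the stress genes described below. Tcim and Phyhd1 also passed the filter in the brain course only through P2. None of the genes named in this group had overlapping P2 and P1 arrays, which the rule for naming them required.

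The greatest fall was that of a probe set annotated to Kcnma1, the gene of a calcium-activated potassium channel. It measured 7.01 and 5.12 at P2, against 10.31 and 11.55 at P1 (log2 difference -4.86, SE 0.57, adjusted p = 0.011). The P1 level was not reached in parental cells (mean 5.06), and the means at P3 and P4 were 13.22 and 13.48. Another probe set annotated to Kcnma1 stayed between 3.4 and 4.17 on all 21 arrays and showed no such course, so the probe sets disagree. The unchanged one is annotated with RefSeq transcripts of the gene and the one that fell with none, and whether its fall is that of Kcnma1 was not settled.

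Il24, a cytokine of the interleukin-10 family, measured 5.99 and 3.95 at P2, against 9.26 and 8.59 at P1 (log2 difference -3.96, SE 0.78, adjusted p = 0.049). Akr1c18, which encodes the enzyme that inactivates progesterone, measured 5.31 and 5.29 at P2, against 8.67 and 8.65 at P1 (log2 difference -3.36, adjusted p = 0.023). The arrays of each passage were nearly superimposed for Akr1c18, and parental cells were lower still at 3.99. In the brain course Akr1c18 passed the filter on level only through P1, and its P2 level lies where background may enter the fold. Pglyrp3, a peptidoglycan recognition protein of epithelia, measured 5.2 and 4.99 at P2, against 8.08 and 8 at P1 (log2 difference -2.94, adjusted p = 0.0078). S100a4, a calcium-binding protein associated with cell motility, measured 5.35 and 4.95 at P2, against 7.47 and 7.89 at P1 (log2 difference -2.53, adjusted p = 0.017). The S100a4 mean at P2 was the lowest of the course, since P0, P3 and P4 had means of 9.56, 9.68 and 8.45.

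Secreted and matrix proteins were among the other genes that fell. Sparc, a matricellular protein that binds collagen, measured 6.57 and 6.32 at P2, against 8.41 and 8.07 at P1 (log2 difference -1.8, adjusted p = 0.018), and the chemokine gene Ccl9 had a log2 difference of -1.89 (adjusted p = 0.019). For both genes P1 was the only brain passage with a mean above 7.3. Ddah1, which degrades the nitric oxide synthase inhibitor dimethylarginine, differed by -1.79, Olfml3, a secreted glycoprotein, by -1.54, and Plat, the tissue plasminogen activator, by -1.16 on the log2 scale. Adgrf4, an adhesion G protein-coupled receptor, and the transcript U90926 differed by -2.35 and -2.81. In the brain course Adgrf4 too passed the filter on level only through P1. The cytoskeletal genes Mapre2, a microtubule end-binding protein, and Gas2l3, which links actin with microtubules, differed by -1.68 and -1.57.

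**Figure D1:**
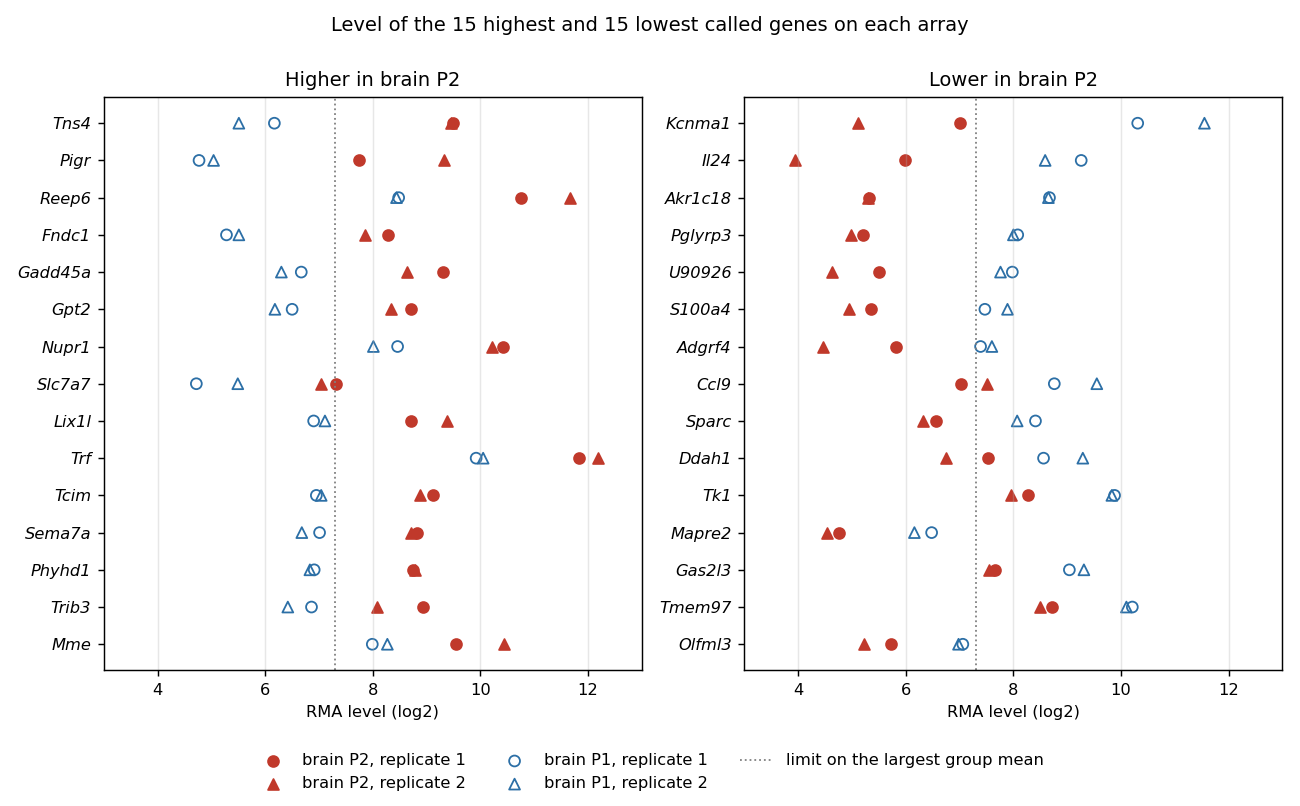
RMA level (log2, horizontal axis) of the 15 called genes with the greatest rise and the 15 with the greatest fall on each of the 2 brain P2 arrays (filled) and 2 brain P1 arrays (open); circles are replicate 1 and triangles replicate 2, the labelled technical replicate. P2 and P1 arrays do not overlap for any gene shown, as the choice of genes required. Pigr, Kcnma1 and Il24 have wide gaps between arrays of a passage (7.75 and 9.32 at P2 for Pigr).

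Genes of the ATF4 and amino acid starvation response had higher levels in P2. Of 45 genes listed, 40 were tested, and 38 had higher means at P2. Limma called 8 higher and 0 lower, or 20% of the list, against 0.935% of all genes called higher. This list and the others were chosen with earlier results of these data known. Some of the 8, named below, passed the filter in the brain course only through P2. With the filter on the mean over all 21 arrays, 5 of 29 tested members were called higher. The median difference of the list was 0.79, against -0.01 over all genes. Both P2 arrays lay above both P1 arrays for 35 of the 40 genes, against 27.1% of all genes. At an unadjusted p below 0.05 there were 30 higher genes and 1 lower gene, against 9.47% and 10% of all genes. The called members fell in number without single arrays, to 2 without P2 replicate 1, 4 without P2 replicate 2, 2 without P1 replicate 1 and 0 without P1 replicate 2 (19 at an unadjusted p below 0.05), and the block gave 15. The median of the list stayed between 0.58 and 0.99 in these 4 fits.

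Gpt2, the mitochondrial alanine transaminase, measured 8.71 and 8.34 at P2, against 6.5 and 6.18 at P1 (4.56-fold, SE 0.22 on the log2 scale, adjusted p = 0.0078). Nupr1, a small stress-induced regulator of transcription, measured 10.42 and 10.21 at P2, against 8.46 and 8.01 at P1 (4.23-fold, adjusted p = 0.0085). In both genes the gap between the passages was wider than the spread within either. The feedback genes were called too. Trib3, a pseudokinase that restrains ATF4, measured 8.94 and 8.07 at P2, against 6.86 and 6.42 at P1 (3.65-fold, adjusted p = 0.037). Chac1, which degrades glutathione, measured 9.38 and 8.84 at P2, against 7.72 and 7.08 at P1 (3.28-fold, adjusted p = 0.033). Ddit4, an inhibitor of mTORC1, measured 9.83 and 9.82 at P2, against 8.66 and 8.33 at P1 (2.51-fold, adjusted p = 0.024).

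Carriers and a folate enzyme made up the rest of the called members. Slc6a9, the glycine transporter GlyT1, measured 10.41 and 9.51 at P2, against 8.38 and 8.17 at P1 (3.21-fold, adjusted p = 0.035). Slc1a4, a carrier of alanine, serine and cysteine, measured 8.21 and 7.23 at P2, against 6.22 and 5.69 at P1 (3.4-fold, adjusted p = 0.039). Aldh1l2, a mitochondrial enzyme of folate metabolism, measured 8.33 and 8.74 at P2, against 6.96 and 6.66 at P1 (3.3-fold, adjusted p = 0.041). P2 replicate 1 was the higher of the P2 arrays for every called member of the list except Aldh1l2. Gpt2, Trib3, Slc1a4 and Aldh1l2 passed the filter on level in the brain course only through P2. Among the members that were not called, Asns, the asparagine synthetase, had a difference of 1.22 (adjusted p = 0.071) and Vldlr, a lipoprotein receptor, of 1.5 (adjusted p = 0.057). Atf4 itself had a difference of 0.65 (adjusted p = 0.2), and Psat1, of serine synthesis, ran the other way at -0.62 (adjusted p = 0.22).

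Further genes known to respond to ATF4 were called outside the list and were picked after their values had been seen. Gadd45a, a growth arrest gene, measured 9.3 and 8.64 at P2, against 6.67 and 6.3 at P1 (5.6-fold, adjusted p = 0.0085). In the brain course Gadd45a passed the filter on level only through P2. It also belongs to the list of p53 targets, of which 18 were tested and 1 was called (5.56%, against 1.78% of all genes). In that list 7 genes were higher and 11 lower at P2, with a median difference of -0.26. Eif4ebp1, a repressor of cap-dependent translation, rose 2.44-fold and Pck2, the mitochondrial phosphoenolpyruvate carboxykinase, 1.98-fold. Vegfa, the vascular growth factor, rose 2.91-fold, with levels of 8.95 and 8.85 at P2, against 7.38 and 7.34 at P1 (adjusted p = 0.011).

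Promoters of the ATF4 list were searched for the composite element TGATGNAA on both strands (TTNCATCA on the other), in the 250 bases before and 50 bases after each RefSeq start site. It occurred at 12 of 33 list members with a promoter in the table (36.4%) and at 4 of the 7 called members, Chac1, Nupr1, Slc1a4 and Trib3. Over all tested genes it occurred at 151 of 6009 (2.51%), over the genes called higher at 8 of 52 (15.4%), and over the genes called lower at 0 of 50. A gene counted as matching if any of its promoters matched. The stretches printed here show the element at 2 called and 2 uncalled members, 5′ to 3′ on the strand of the gene and with the element in capitals; they come from RefSeq on GRCm38.p6, at chr7:126625562-126625591 on the minus strand (Nupr1), chr2:119351038-119351067 on the plus strand (Chac1), chr19:27216809-27216838 on the plus strand (Vldlr) and chr6:7693214-7693243 on the minus strand (Asns).
Nupr1: aaagggccagaTTGCATCAgacagggcttg
Chac1: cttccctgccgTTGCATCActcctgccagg
Vldlr: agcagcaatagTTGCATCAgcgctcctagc
Asns: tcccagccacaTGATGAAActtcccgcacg
The letters TTGCATCA were shared by Nupr1, Chac1 and Vldlr, which differed by 2.08, 1.71 and 1.5 on the log2 scale, and Asns held the other orientation 16 to 23 bases before its start. A match is a description of the letters only.

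Genes of mitosis and the spindle had lower levels in P2. Of 56 listed, 54 were tested and all 54 had lower means at P2, with differences from -1.35 to -0.17 and a median of -0.85. Limma called 9 of them lower and 0 higher, which is 16.7% of the list, against 0.84% of all genes called lower. For 53 of the 54 both P2 arrays lay below both P1 arrays, against 28.9% of all genes. An unadjusted p below 0.05 was reached by 48 lower genes and 0 higher genes, against 10% of all genes for the lower direction. The 9 calls became 4 without P2 replicate 1 and 0 without each of the other 3 arrays (28 to 39 at an unadjusted p below 0.05), and 18 with the block. The median of the list was -1.08 without P2 replicate 1 and -0.61 without P2 replicate 2, so replicate 2 held the lower levels at P2.

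Bub1, a kinase of the spindle checkpoint, measured 7.54 and 7.46 at P2, against 8.76 and 8.94 at P1 (log2 difference -1.35, SE 0.18, adjusted p = 0.017). Aurkb, the aurora kinase of the chromosomal passenger complex, measured 8.41 and 8.12 at P2, against 9.48 and 9.61 at P1 (log2 difference -1.29, adjusted p = 0.02). Racgap1 measured 8.69 and 8.38 at P2, against 9.72 and 9.72 at P1, Ect2 measured 9.73 and 9.6 at P2, against 10.62 and 10.85 at P1, and Kif23 measured 9.23 and 8.65 at P2, against 10.11 and 10.28 at P1. These genes act in cytokinesis, as do Prc1 and Cep55, which were not called (log2 differences -0.65 and -0.81, adjusted p = 0.18 and 0.15). Ccna2, the cyclin of S and G2 phases, had a log2 difference of -1.05, the cohesin regulator Cdca5 of -0.94, the spindle proteins Fam83d and Nusap1 of -1.13 and -0.94. The adjusted p of these 4 genes and of Racgap1, Ect2 and Kif23 lay between 0.031 and 0.049.

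Genes of DNA replication and the G1 to S transition also had lower levels in P2. Of 56 listed, 51 were tested, 49 had lower means at P2, and the median difference was -0.58, against -0.01 over all genes. Of these 6 were called lower and 0 higher (11.8%, against 0.84% of all genes called lower), and 28 lower genes reached an unadjusted p below 0.05 (10% of all genes). Rrm2, a subunit of ribonucleotide reductase, measured 8.87 and 9.14 at P2, against 10.59 and 10.42 at P1 (log2 difference -1.5, SE 0.2, adjusted p = 0.017). Tk1, the thymidine kinase of S phase, measured 8.28 and 7.95 at P2, against 9.88 and 9.83 at P1 (log2 difference -1.74, adjusted p = 0.035), and a second probe set of Tk1 also differed by -1.74. The cyclins Ccne1 and Ccne2, which drive entry into S phase, differed by -1.28 and -1.22, the repressor E2f7 by -1.14 and the primase subunit Prim1 by -1.29. None of the 6 calls held without any single array (19 to 23 genes at an unadjusted p below 0.05), while the median stayed between -0.57 and -0.53. Together 15 of the 62 lower genes were on the mitosis or replication list.

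The CHR element, read as TTTGAA on the strand of the gene or as TTCAAA when it lies on the opposite one, occurred in the promoters of 35 of 45 tested mitosis genes (77.8%), against 829 of 6009 of all tested genes (13.8%) and 5 of 42 replication genes (11.9%). Of the 9 called mitosis genes 7 had a promoter in the table and 5 of these held it. Over the genes called lower the CHR element occurred at 14 of 50 (28%), and over the genes called higher at 9 of 52 (17.3%). The E2F letters TTTCCCGC occurred at 7 of 42 replication genes (16.7%), 2 of 45 mitosis genes (4.44%) and 168 of 6009 of all tested genes (2.8%), and at 1 of the 5 called replication genes with a promoter. The E2F letters TTTGGCGC occurred at 6 of 42 replication genes (14.3%), 0 of those 5 and 1.21% of all tested genes. The sterol regulatory element occurred at 0 of 16 cholesterol genes and 1 of 6009 of all tested genes. Among the called mitosis genes the CHR letters, in capitals, stood before a RefSeq start site of Cdca5, Ect2 and Fam83d. The sequences come from RefSeq on GRCm38.p6 at chr19:6085068-6085096 on the plus strand, chr3:27153975-27154004 on the minus strand and chr2:158768037-158768066 on the plus strand.
Cdca5: caaggcgggcaaTTTGAAcgtttgaagca
Ect2: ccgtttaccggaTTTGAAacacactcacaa
Fam83d: gggctggtttgaTTCAAAgatgcctataaa
The capitals lie 12 to 17, 109 to 114 and 45 to 50 bases before the start sites, and Cdca5 holds the letters again, left in lower case, 4 to 9 bases before its start. Ect2 had 2 promoters with 4 matches in all. The stretch printed for Ect2 precedes an internal start, within the span of the gene (chr3:27097222-27154253).

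Most genes of cholesterol synthesis had lower means in P2, but 1 gene passed the test. Of 26 listed, 20 were tested, 19 had lower means at P2, and the median difference was -0.63. Of these 1 was called lower (5%, against 0.84% of all genes) and 0 higher, 10 lower genes and 1 higher gene reached an unadjusted p below 0.05, and 19 had both P2 arrays below both P1 arrays (28.9% of all genes). The called gene was Stard4, which carries cholesterol between membranes, with levels of 6.06 and 6.34 at P2, against 7.21 and 7.48 at P1 (adjusted p = 0.045). Its call was lost without any single array. Idi1, the isopentenyl diphosphate isomerase, measured 7.57 and 7.77 at P2, against 9.17 and 9.15 at P1 (log2 difference -1.49, adjusted p = 0.052), and its second probe set differed by -0.99. Tmem97, a sterol-regulated membrane protein outside the list, measured 8.71 and 8.49 at P2, against 10.21 and 10.1 at P1 (log2 difference -1.55, adjusted p = 0.019).

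Of the 42 process lists, 21 held no called gene. Ribosomal proteins (34 tested) had a median difference of 0.03 and 0 calls, with 2 genes at an unadjusted p below 0.05, and the respiratory chain (58 tested) a median of -0.13 and 0 calls, with 3 such genes. Chaperones and folding enzymes of the endoplasmic reticulum (32 tested) had a median of -0.31 and 0 calls, with 2 higher and 8 lower genes at an unadjusted p below 0.05. Amino acid carriers (21 tested) held 3 higher genes, Slc7a7, Slc6a9 and Slc1a4 (14.3%), and had a median of 0.1. Glycolysis and hypoxia genes (26 tested) held 2 higher genes, Vegfa and Ddit4 (7.69%). Over all genes 0.935% were called higher. The mesenchymal transition list (15 tested) held 2 lower genes, S100a4 and Sparc (13.3%, against 0.84% of all genes called lower), and had a median of 0.03. Other lists held single calls, among them Etv5, an ERK-responsive factor (2.02-fold), and Gjb2, a connexin (3.2-fold). In the brain course Gjb2 passed the filter on level only through P2. Guidance molecules (27 tested) held 1 call in each direction, Sema7a and the neuropilin Nrp1 (log2 difference -0.93). This is 7.41% of the list, against 1.78% of all genes called in either direction.

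**Figure D2:**
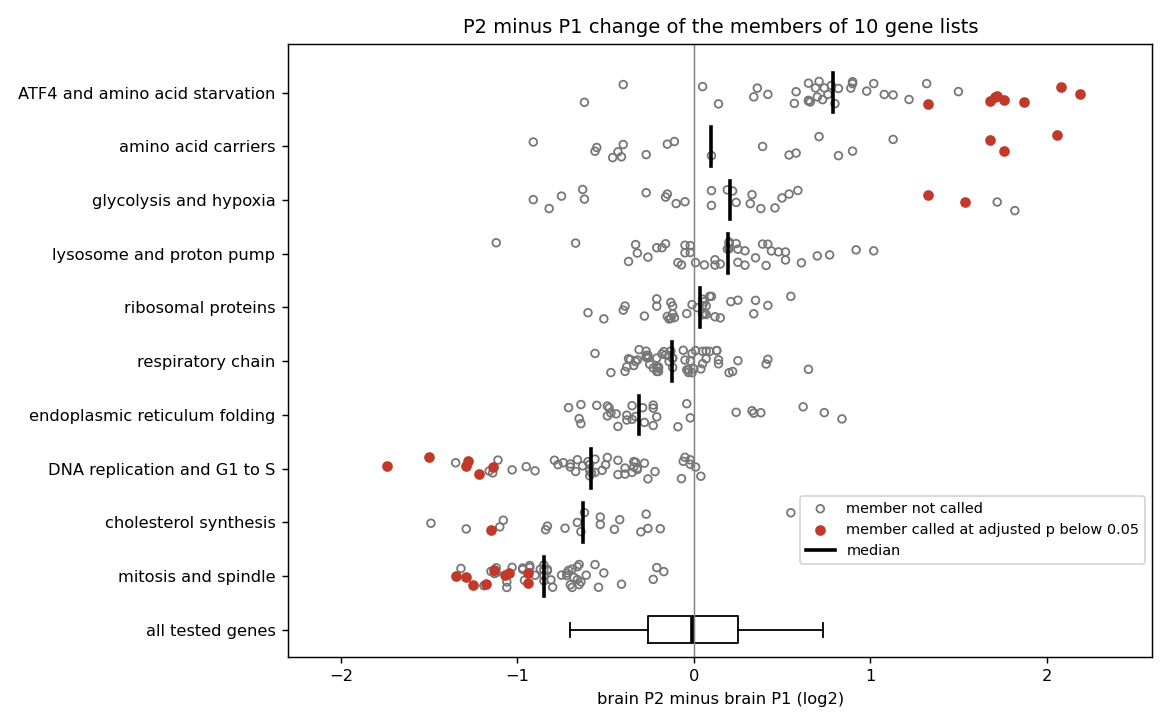
Difference between brain P2 and brain P1 (log2 of the P2 mean minus the P1 mean, horizontal axis) of the tested members of 10 gene lists; filled points are members called at an adjusted p below 0.05, bars are medians, and the box shows the quartiles of all 7379 tested genes with whiskers from the 5th to the 95th percentile. The ATF4 list lies to the right (median 0.79), and the mitosis (-0.85), cholesterol (-0.63) and replication (-0.58) lists lie to the left.

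The second adaptation experiment gave a P2 minus P1 change of its own, from 1 array per passage. The spread of these single arrays was taken from the groups that had 2. The authors placed both of its passages later in the course of the first experiment and read this as faster adaptation. Passages of the same number therefore need not be the same stage, and the part of timing in the differences below was not tested. The difference of the 2 changes was called for 98 of 7379 genes (1.33%), among them 28 of the 69 higher and 19 of the 62 lower genes, which share the first experiment's arrays with that test. The called numbers were 55 without P2 replicate 1, 70 without P2 replicate 2, 37 without P1 replicate 1 and 20 without P1 replicate 2, and 184 with the block. Across genes, which are not independent replicates, the 2 changes had a correlation of -0.2. Of the genes called higher in brain P2, 24 of 69 were higher at P2 of the second experiment (34.8%), against 44.1% of all genes. Of the genes called lower, 51 of 62 were higher there (82.3%).

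The ATF4 genes ran in opposite directions in the experiments. In the first, 38 of 40 were higher at P2; in the second, 39 of 40 were lower at P2, with a median difference of -1.63. The difference between experiments was called for 21 of the 40, against 1.33% of all genes. Gpt2 measured 5.89 at P2 of the second experiment, against 8.95 at P1 of it, and its changes differed by 5.24 between experiments (SE 0.38, adjusted p = 0.0013). Chac1 measured 7.11 at P2, against 10.07 at P1, and Aldh1l2 6.11 at P2, against 9.72 at P1 in that experiment. Their changes differed between experiments by 4.68 and 5.33 (adjusted p = 0.0069 each). For these 3 genes the level at P1 of the second experiment was above both P2 arrays of the first. In bone marrow and lung cells the median P2 minus P1 change of the list was -0.12 and -0.17.

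For the mitosis list the second experiment had a median change of 0.18 with 45 of 54 genes higher at P2, and for the replication list 0.46 with 42 of 51 higher. The difference between experiments was called for 1 mitosis gene and 4 replication genes, against 1.33% of all genes. The count of the mitosis list lies near that share. Cholesterol genes had a median of 0.86 with 19 of 20 higher, and 4 were called for the difference. Aurkb measured 9.78 at P2 of the second experiment, against 8.81 at P1, and Rrm2 10.33 at P2, against 9.36 at P1. S100a4 measured 9.75 at P2, against 8.13 at P1, and the Kcnma1 probe set was low at both, at 5.53 at P2, against 4.21 at P1. Tns4 was high at both, at 11.23 at P2, against 11.08 at P1, and Pigr and Fndc1 were low at both, at 4.98 and 4.57 at P2, against 4.76 and 4.4 at P1.

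**Figure D3:**
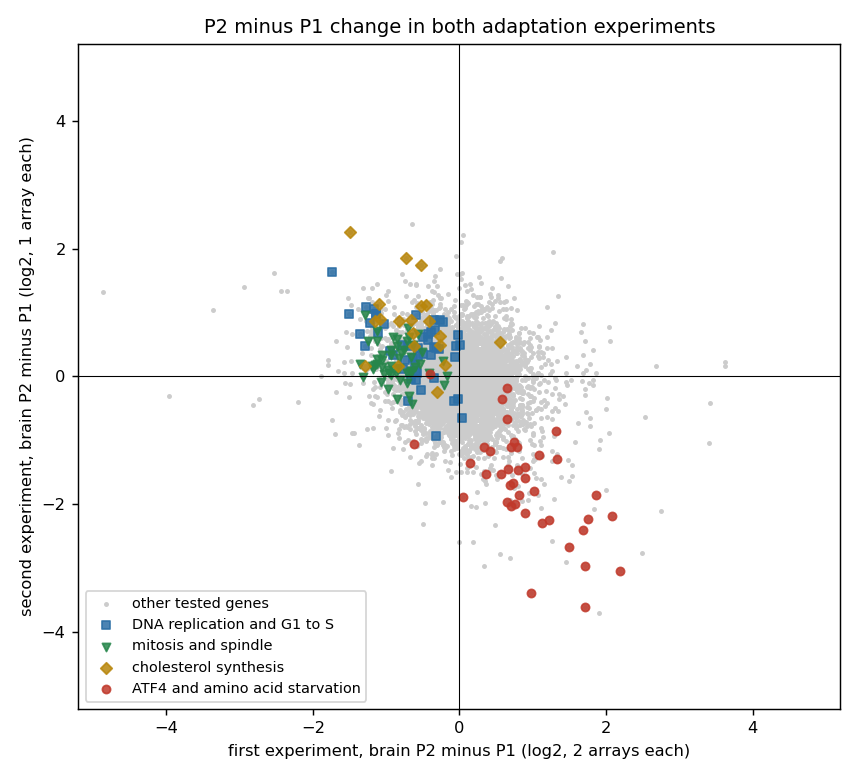
Change from brain P1 to brain P2 in the first adaptation experiment (horizontal axis, log2 of the P2 mean minus the P1 mean, 2 arrays each) and in the second (vertical axis, 1 array each); grey points are the other tested genes and coloured symbols the members of 4 lists. ATF4 genes lie at the lower right (38 of 40 higher in the first, 39 of 40 lower in the second experiment), and cholesterol genes at the upper left (19 of 20 in each direction).

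Within the first experiment the P2 mean was the highest among P0 to P4 for 57 of the 69 higher genes (82.6%) and the lowest for 53 of the 62 lower genes (85.5%), against 28.1% and 22.8% of all genes. The P1 mean was the lowest for 35 of the higher genes (50.7%) and the highest for 18 of the lower genes (29%), against 15.6% and 22%. Both shares are raised by the choice of genes that differ between P1 and P2 and are given as a description. The ATF4 list had median levels of 8.13, 8.36, 9.25, 8.27 and 8.01 from P0 to P4, and the mitosis list 8.53, 8.13, 7.45, 8.64 and 8.51. Nupr1 had means of 8.49, 8.41 and 8.37 at P0, P3 and P4, and Bub1 of 9.11, 9.21 and 8.99.

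**Figure D4:**
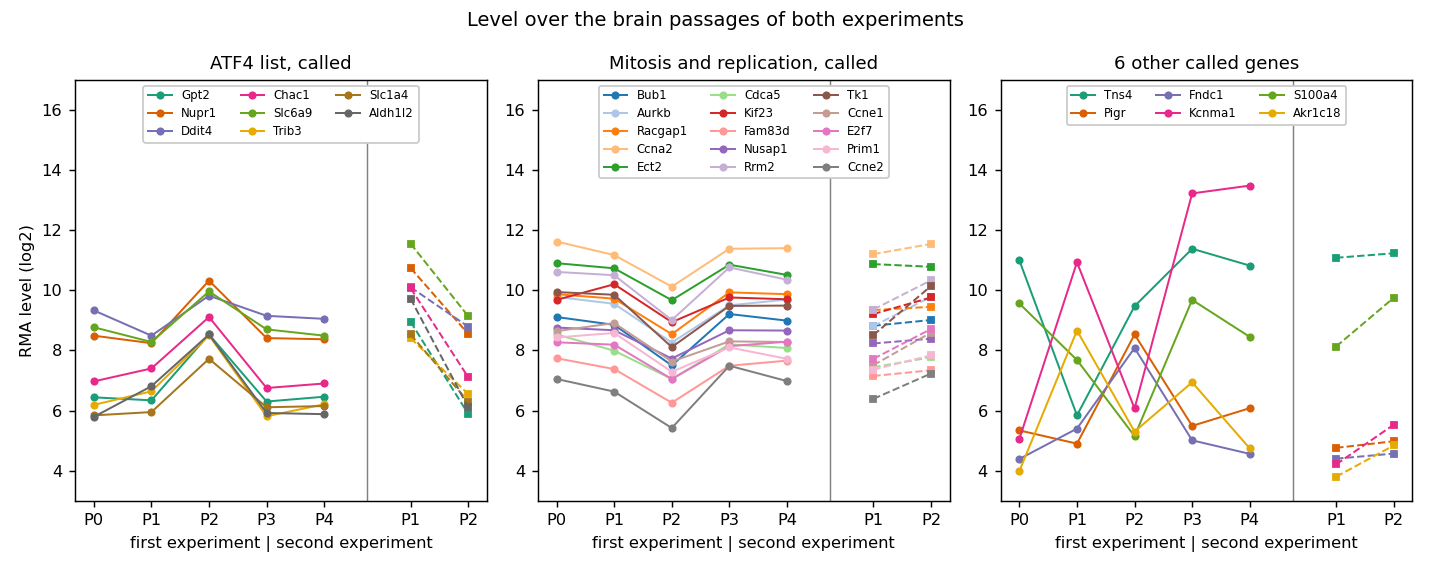
Mean RMA level (log2, vertical axis) at P0 to P4 of the first experiment (solid lines, 2 arrays per point) and on the single P1 and P2 arrays of the second (dashed lines) for the 8 called ATF4 list genes, the 15 called mitosis and replication genes and 6 other called genes. ATF4 genes peak at P2 in the first experiment and are high at P1 in the second; the mitosis and replication genes dip at P2 (Bub1, 7.54 and 7.46 on its arrays).

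Markers were read to check the label of the cells. Of 10 epithelial markers 9 reached 7.3 at both passages, with Krt8 at 12.94 and 12.55 at P2, against 12.95 and 12.65 at P1. Erbb2, whose probe set was designed on the mouse gene while the transgene of the line is the rat one, measured 9.86 and 10.02 at P2, against 9.56 and 9.46 at P1 (adjusted p = 0.32). No neuron, fibroblast, adipocyte or blood cell marker reached a passage mean of 7.3 (10, 10, 7 and 4 measured), although the blood marker S100a8 stood at 6.46 and 7.43 at P2, against 6.24 and 7.29 at P1. Of 8 astrocyte markers 3 reached it at P2 and 2 at P1 (Aldoc, Gja1 and Glul), while Gfap stood at 4.19 and 4.37 at P2, against 4.47 and 4.13 at P1. The summed linear level of the astrocyte markers was 1130 to 1570 at P2, against 919 to 1080 at P1, and that of the neuron markers 247 to 255 at P2, against 219 to 222 at P1. For both lists the sums were higher at P2 without overlap. Of 9 oligodendrocyte markers measured 3 reached 7.3 at P2 and 2 at P1 (Cnp, Mbp and Sox10), and of the 13 macrophage and 10 endothelial markers 1 each (Cd68 and Flt1). Their summed levels were 1810 to 1880 at P2, against 1590 to 1890 at P1 (oligodendrocyte), 491 to 599 at P2, against 478 to 555 at P1 (macrophage), and 495 to 528 at P2, against 452 to 532 at P1 (endothelial). Fibroblast markers summed to 297 to 328 at P2, against 276 to 287 at P1, without overlap, blood markers to 183 to 281 at P2, against 159 to 246 at P1, and adipocyte markers to 132 to 155 at P2, against 151 to 157 at P1. Ptprc, the pan-leukocyte marker, stood at 3.77 and 3.7 at P2, against 4 and 3.78 at P1. The part of these differences in the results was not tested.

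Chromosome-wide shifts between the passages were small. Each array's median over a chromosome was set against its median over the others, and 4 of 20 chromosomes (20%) were called, X at -0.157 (SE 0.0391, adjusted p = 0.0023), 1 and 18 at -0.107 each and 12 at 0.108 (adjusted p = 0.037 each). The SE was 0.0391 for every chromosome, because limma gave all 20 a single pooled variance. These p-values therefore assume that chromosomes vary alike, which was not tested. The median difference of single genes was -0.12 on X, -0.05 on 1, 0 on 18 and 0.06 on 12, so the shift of 18 is not seen in its median gene. The X medians were 0.0711 and 0.0375 above the others on the P2 arrays, against 0.193 and 0.23 on the P1 arrays, with no overlap. The number of called chromosomes was 2 without P2 replicate 1, 0 without P2 replicate 2, 1 without P1 replicate 1 and 0 without P1 replicate 2, where 4 chromosomes each had an unadjusted p below 0.05 in the fits with no call. Chromosome 3 held the most called genes, 5 higher and 12 lower of 406 tested (4.19%, against 1.78% of all genes), without a called shift of its median.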

How the data were processed

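The deposited log2 values per probe set, from Affymetrix Mouse Gene 1.0 ST arrays, were made by the authors with RMA (background correction, quantile normalization, median polish) in Expression Console, and were used without further scaling. Gene names came from the platform annotation (21640 of 34760 probe sets with 1 symbol, 1321 with several, 11799 with none), and 21553 were found in RefSeq (GRCm38.p6). Probe sets with a largest group mean of at least 7.3 were kept, and the probe set with the highest mean stood for a gene. Below that level no detection calls were used, and folds may include background.

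Group means were fitted to all 21 arrays with limma 3.58.1 in R 4.3.3 (5 residual degrees of freedom, prior 3.9), and p adjusted by Benjamini-Hochberg over 10638 probe sets. Arrays labelled technical replicate deviated together between brain passages (correlations 0.119 to 0.403 over 6 pairs of passages), so the label was also fitted as a block. On simulated data, 80 of 100 probe sets changed 4-fold and 31 of 100 changed 2-fold were recovered among 10638, with 8 false calls. The simulated noise was independent between arrays and held no such shared deviation, so recovery in the real data may differ. Of 1415 genes on the lists, 1321 matched a probe set, 21 of them by an older symbol. Genes named were, among called genes with no overlap, the 15 highest and 15 lowest, 4 members per list by p, Erbb2 and the 2 most abundant markers per cell type; fewer are printed. Aldh1l2, Asns, Vldlr, Atf4, Psat1, Ect2, Kif23, Cdca5, Fam83d, Nusap1, Ccne2, E2f7, Eif4ebp1, Pck2, Prc1, Cep55, Gfap and Ptprc fall outside that rule and were chosen after their values were seen. The members and lists were chosen with earlier results of these data known. Figures used matplotlib 3.10.9.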

Additional observations from a re-analysis of the deposited data

Results flagged for a closer look

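In each gene below the P2 minus P1 change differed between the first and the second adaptation experiment by limma's test of the difference (adjusted p from 0.0013 to 0.048), with a single array per passage in the second. Values are the first minus the second change on the log2 scale. Passages of the same number need not be the same stage, since the authors placed both of the second experiment later in the first course.

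The difference was positive for ATF4 and stress genes: Aldh1l2 5.33, Gadd45a 5.26, Gpt2 5.24, Chac1 4.68, Nupr1 4.27, Vldlr 4.17, Slc6a9 4.1, Slc1a4 3.99, Trib3 3.73, Asns 3.47, Eif4ebp1 3.21, Ddit4 2.63 and Pck2 2.03. Each of these was higher at P2 in the first experiment and lower at P2 in the second. So were Reep6 (4.86), Tcim (3.79), Phyhd1 (3.03), Sema7a (2.93), Vegfa (2.92) and Etv5 (2.1). Tns4 (3.48) was higher at P2 in both experiments, by 3.63 in the first and 0.16 in the second.

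The difference was negative for cell division genes: Tk1 -3.38, Rrm2 -2.47, Ccne1 -2.36, Aurkb -2.25, E2f7 -2.12 and Gas2l3 -1.81. It was negative for the sterol genes Idi1 (-3.74), Tmem97 (-2.24) and Stard4 (-2.02), and for the Kcnma1 probe set (-6.18), Pglyrp3 (-4.34) and S100a4 (-4.15). Each of these was lower at P2 in the first experiment and higher at P2 in the second.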

How the results depend on the processing

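The count of 131 called genes stayed within 1.5 times under the stricter filter, the filter on the mean over all arrays, subtraction of chromosome medians, the variance trend, the 2-fold limit and the mean over probe sets (116 to 171). It was 218 with equal array medians, 203 with cyclic loess, 239 with the replicate block, 83 with the 8 brain arrays only and 12 with the 4 arrays of brain P2 and P1 only. By limma it was 0 with no filter (1578 genes at an unadjusted p below 0.05), 0 for the mean of both adaptation experiments (896) and 0 without the 4 arrays labelled technical replicate (586), a setting chosen after seeing the data. Leaving out single arrays gave 1 to 41. The cause was not tested.

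For the mean of both experiments the sign turned for Chac1 (-0.63), Gpt2 (-0.43), Slc6a9 (-0.36), Slc1a4 (-0.23), Gadd45a (-0.14), Nupr1 (-0.05) and Etv5 (-0.03), none of them called. Of the 47 called genes named by the rule, all kept their call with the block and none without a filter.

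The 4 called chromosomes became 1 with no filter, 1 with the 4 arrays only and 0 to 2 without single arrays. The 98 genes called for the difference between experiments became 152 with cyclic loess, 184 with the block and 20 to 70 without single arrays, settings added after seeing the data. With 2 arrays per passage and noise independent between arrays, 2-fold differences were recovered for 31 of 100 simulated probe sets.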
